A study of Oryza sativa Japonica Group with 16 samples.

Results

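The short-arm ends of rice Chr11 and Chr12 carry a recent segmental duplication, so that many genes lie in the same order at both ends. CHH methylation along these ends was described in crown root (CR) and lateral root (LR) initials in which DNA methylation was genetically raised. The members were all windows of the 4 deposited CHH tables whose midpoint lies within the first 2.5 Mb of Chr11 or of Chr12, hereafter the Chr11 segment and the Chr12 segment. There were 13634 such windows, 6636 on Chr11 and 6998 on Chr12, of 1108506 windows listed anywhere in the genome. They covered 27.3% of the 49990 window positions of the segments, and 29.7% of all positions in the genome were listed in at least 1 table.

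DNA methylation was measured by BS-seq, in which bisulfite converts unmethylated cytosines so that methylated ones can be read, in initials of stage 1 cut out by laser microdissection from japonica rice of the ZH11 background. The *ta2* plants carry a point mutation in the DNA demethylase gene *DNG702* that leads to alternative splicing, and the *OxDRM2* plants overexpress the DNA methylase gene *DRM2* from a ubiquitin promoter. Both mutants were set against wild type plants of the same root type and stage. Each mutant had 2 biological replicates per root type, and each table is 1 comparison that holds no value per replicate. The wild type libraries are part of a different series, so genotype and library series cannot be told apart. *ta2* CR and *OxDRM2* CR share their wild type libraries, and so do *ta2* LR and *OxDRM2* LR.

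In a CHH site, neither of the 2 bases after the cytosine is a G. Such sites have no symmetric cytosine on the opposite strand, so their methylation has to be placed again after each replication, in plants largely by DRM2 guided by small RNAs at transposons. DNA glycosylases of the DNG family cut methylated cytosines out, and the gap is filled with an unmethylated base. Duplicated chromosome ends bear on such a measurement because reads that fit both copies equally well are lost when only unique alignments are kept. How many reads of the ends were lost in this way was not tested.

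Each window is 1000 bp wide and windows start every 100 bp, so a base lies in up to 10 windows and neighbouring windows are not independent. A window is listed when its CHH level differed by at least 10 percentage points with a q-value under 0.01. Positive differences were read as higher in the mutant and are called hyper, and negative ones are called hypo. Shares below are the percentage of all window positions in a stretch that were listed. Without values per replicate no difference could be set against a replicate spread, and each segment is a single stretch, so the comparisons are descriptions with no test.

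No sequence is shown, since the genome of the version used for mapping, RGAP 7.0, was not used here. Positions on the 2 ends are therefore compared by distance from the chromosome start, not by alignment. The gene order was read from RefSeq annotation of another assembly, for names and order only. In it, 18 named gene pairs, chosen from that annotation, followed each other in the same order on both ends. Among them were *PHOT1B* and *PHOT1A*, which encode blue light receptors, *CIPK15* and *CIPK14*, which encode calcium sensor-interacting kinases, and *LTP2-A* and *LTP2-B*, which encode lipid transfer proteins. *SCR1* and *SCR2* encode SCARECROW-type regulators of root ground tissue, *RR9* and *RR10* encode response regulators of cytokinin signalling, and *PSK2* and *PSK5* encode precursors of the growth peptide phytosulfokine.

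Nearly every listed window of the segments gained CHH methylation. In *ta2* CR, 2352 windows of the Chr11 segment were hyper, 9.41% of its positions, against 8.86% in the rest of Chr11. In the Chr12 segment, 2593 windows were hyper, 10.4%, against 9.93% in the rest of Chr12. Over the genome, 10.4% of positions were hyper in *ta2* CR, so both ends stood near the level found elsewhere. In *ta2* LR, 2007 windows or 8.03% were hyper in the Chr11 segment, against 7.94% in the rest of Chr11. The Chr12 segment had 2143 hyper windows or 8.57%, against 9.35% in the rest of Chr12. The genome-wide share in *ta2* LR was 9.73%, above both ends.

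*OxDRM2* CR gave the most hyper windows on both ends. Among the mutant groups, the paper lists the highest BS-seq coverage for *OxDRM2* CR, and whether depth contributed was not tested. The Chr11 segment had 5370 hyper windows, 21.5% of positions, against 20.8% in the rest of Chr11. The Chr12 segment had 5748, or 23.0%, against 22.5% in the rest of Chr12. Both lay slightly under the genome share of 23.7%. *OxDRM2* LR had 2517 hyper windows or 10.1% in the Chr11 segment, against 10.3% in the rest of Chr11. In the Chr12 segment, 2867 windows or 11.5% were hyper, against 11.9% in the rest of Chr12, and the genome share was 12.6%. The segment and the rest of its own chromosome thus differed by less than 1 percentage point in all 4 tables. The Chr12 segment had the higher share of the 2 ends in all 4, and so had the rest of Chr12 against the rest of Chr11.

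The ratio of the hyper share in the segment to that in the rest of the chromosome summarised this. For Chr11, it was 1.06 in CR and 1.01 in LR of *ta2* and 1.03 in CR and 0.98 in LR of *OxDRM2*. For Chr12, it was 1.05, 0.92, 1.02 and 0.97 in the same order. The ratio of the Chr11 segment to the Chr12 segment was 0.91, 0.94, 0.93 and 0.88, so Chr11 was lower in each table. The rest of Chr11 was also below the rest of Chr12, with 8.86% against 9.93%, 7.94% against 9.35%, 20.8% against 22.5% and 10.3% against 11.9%. The order of the 2 ends was thus that of their chromosomes. The segment to rest ratios were close enough to 1 that several other settings moved them to the other side of it.

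**Figure D1:**
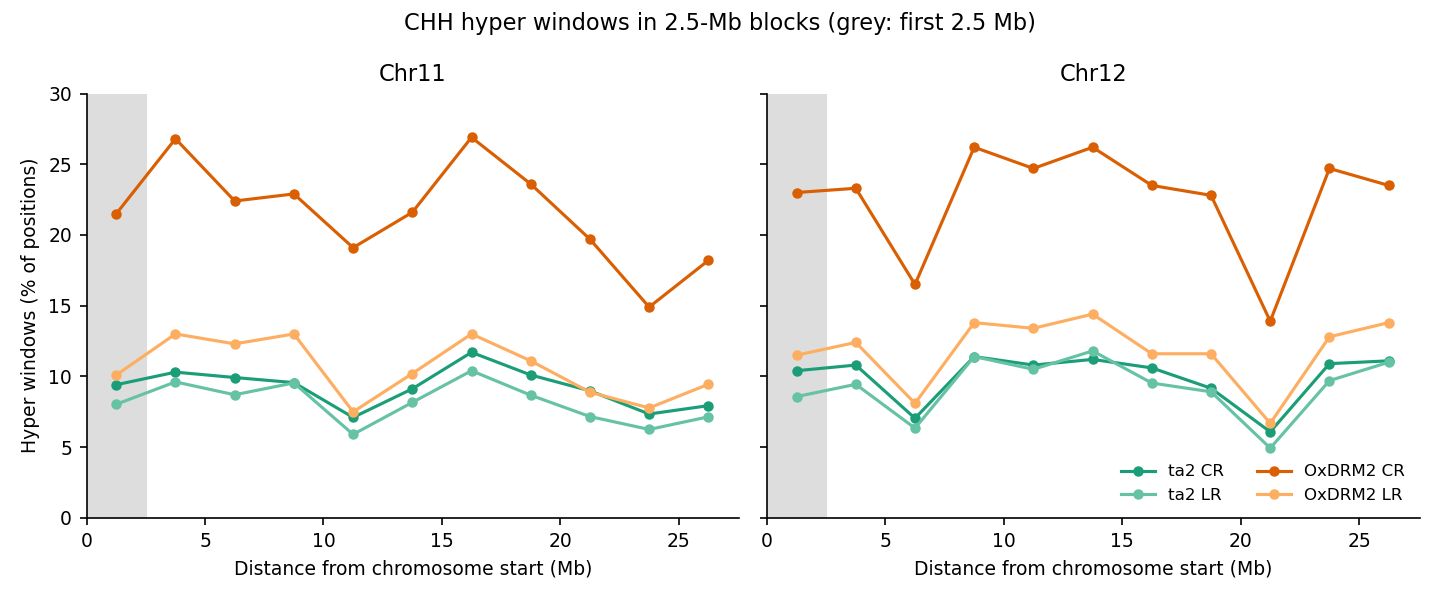
Share of window positions listed as hyper (%) in consecutive 2.5-Mb blocks of Chr11 and Chr12, plotted at block centres by distance from the chromosome start (Mb), with a line for each table. The first block, in grey, is the duplicated end. It lay within the range of the other 10 blocks of its chromosome in each table, for example 9.41% on Chr11 in *ta2* CR against 7.1% to 11.7%.

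In blocks of 2.5 Mb, the Chr11 segment had the 6th highest hyper share of 11 blocks of Chr11 in *ta2* CR and the 7th in each of the other tables. The Chr12 segment ranked 8th of 11 in *ta2* CR and *OxDRM2* CR and 9th in *ta2* LR and *OxDRM2* LR. In the genome-wide order, the Chr11 segment ranked 109th of 133 blocks in CR and 129th of 144 in LR of *ta2* and 115th in CR and 132nd in LR of *OxDRM2*. The Chr12 segment ranked 73rd, 121st, 94th and 113th in that order of tables. Both ends therefore belonged to the lower part of the genome, apart from the Chr12 segment in *ta2* CR, which was near the middle. The *ta2* CR order has fewer blocks because the deposited table ends on Chr8.

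The comparison depended on which arm the segment was set against. The rest of the Chr11 short arm, up to 12 Mb, had 9.56% hyper positions in CR and 8.83% in LR of *ta2* and 23.2% in CR and 11.9% in LR of *OxDRM2*. These values were all above the Chr11 segment. The Chr11 long arm was lower, at 8.47%, 7.45%, 19.5% and 9.42% in the same order, all below the segment. Its last 2.5 Mb had 4.48% in CR and 4.61% in LR of *ta2* and 11.2% in CR and 6.57% in LR of *OxDRM2*. The 2 ends of Chr11 thus differed, with the duplicated end 2.1, 1.74, 1.92 and 1.53 times as high as the other end.

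Chr12 had no such slope. In *ta2*, the rest of its short arm had 9.95% hyper positions in CR and 9.37% in LR, and its long arm had 9.91% and 9.34%. In *OxDRM2*, these shares were 22.4% and 11.9% on the short arm and 22.6% and 11.8% on the long arm. The last 2.5 Mb of Chr12 had 11.2% and 10.9% in CR and LR of *ta2* and 23.5% and 13.7% in CR and LR of *OxDRM2*, above the duplicated end in each table.

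Along their length, the ends had their highest blocks at different places. In blocks of 100 kb, the hyper share of the Chr11 segment ranged from 4.1% to 19.5% in CR and from 3.7% to 13.7% in LR of *ta2* and from 11.8% to 40.3% in CR and from 3.92% to 16.7% in LR of *OxDRM2*. That of the Chr12 segment ranged from 6.1% to 18.2%, from 3.9% to 16.5%, from 16.1% to 30.8% and from 5.6% to 19.4% in the same order. The spread between blocks of 1 segment was thus wider than any difference between a segment and its chromosome. That difference is between shares over far longer stretches, which vary less than short blocks. The spread of 100-kb blocks in the rest of the chromosomes was not examined, so no trait of the ends follows from this.

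**Figure D2:**
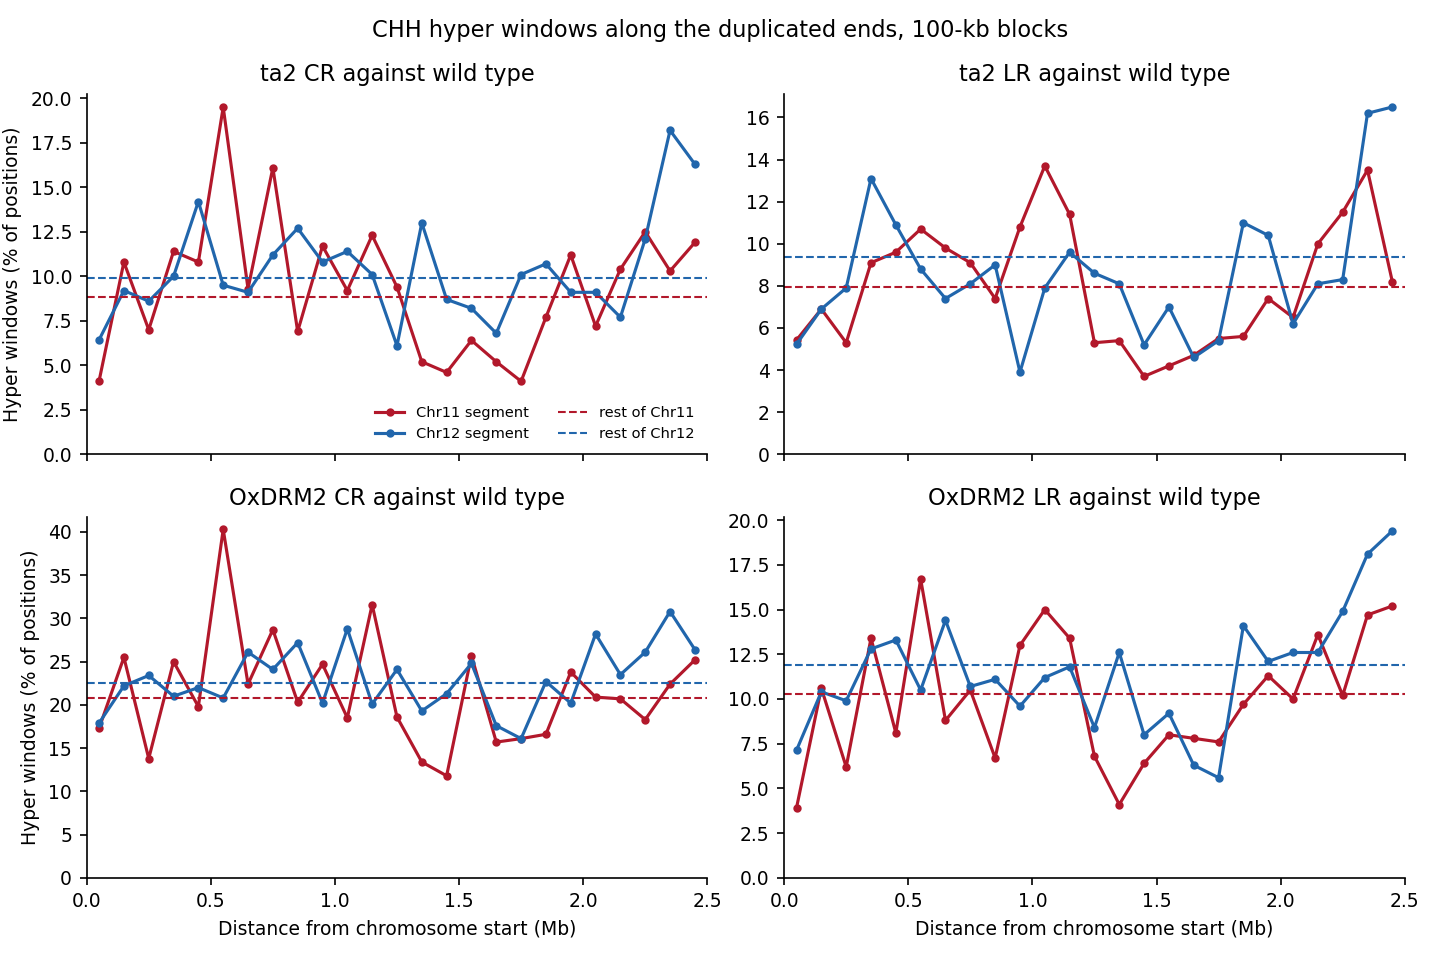
Share of window positions listed as hyper (%) in 100-kb blocks along the Chr11 segment (red) and the Chr12 segment (blue), by distance from the chromosome start (Mb), with a panel for each table and its own vertical scale. Dashed lines are the shares in the rest of each chromosome. The Chr11 peak at 0.5 to 0.6 Mb, 40.3% in *OxDRM2* CR, had no counterpart at the same distance on Chr12, where the share was 20.8%.

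The highest block of the Chr11 segment was the one from 500 to 600 kb in *ta2* CR, *OxDRM2* CR and *OxDRM2* LR. There the hyper share was 19.5% on Chr11 against 9.5% on Chr12 in *ta2* CR. In *OxDRM2* CR it was 40.3% against 20.8%, and in *OxDRM2* LR 16.7% against 10.5%. In *ta2* LR this block had 10.7% against 8.8%, and the highest Chr11 block was that from 1000 to 1100 kb, with 13.7%. Without the block from 500 to 600 kb, the share of the Chr11 segment in *OxDRM2* CR was 20.7%, against 20.8% in the rest of Chr11.

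The Chr12 segment was highest at its inner border. From 2.3 to 2.5 Mb, 17.2% of its positions were hyper in CR and 16.4% in LR of *ta2* and 28.6% in CR and 18.8% in LR of *OxDRM2*. The Chr11 segment had 11.1%, 10.8%, 23.8% and 14.9% over the same distance. Without these 200 kb of Chr12, the ratio of the Chr11 to the Chr12 segment was 0.96 in CR and 1.02 in LR of *ta2* and 0.95 in CR and 0.93 in LR of *OxDRM2*, so in *ta2* LR the order of the 2 ends turned.

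Between 1.3 and 1.8 Mb both ends were low. The Chr11 segment had 5.1% hyper positions there in CR and 4.7% in LR of *ta2* and 16.5% in CR and 6.78% in LR of *OxDRM2*. The Chr12 segment had 9.36%, 6.06%, 19.8% and 8.34%. All 5 blocks of this stretch were below the rest of Chr11 in *ta2* CR, *ta2* LR and *OxDRM2* LR, and 4 of 5 were in *OxDRM2* CR. On Chr12, 3 of 5 blocks were below the rest of the chromosome in *ta2* CR, 5 of 5 in *ta2* LR and 4 of 5 in both *OxDRM2* tables. The stretches of this and the preceding paragraphs were chosen after their values were seen.

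The profiles of the 2 ends were weakly alike at this scale. Over the 25 blocks of 100 kb, Spearman's rho between Chr11 and Chr12 was 0.35 in CR and 0.39 in LR of *ta2* and 0.19 in CR and 0.48 in LR of *OxDRM2*. The points of each table share their libraries and the distance from the chromosome start, and the values are descriptions. At the level of windows, 237 positions at the same distance were hyper on both ends in *ta2* CR, which is 10.1% of the hyper windows of Chr11, against 10.4% of all Chr12 positions. The same share was 7.17% against 8.57% in *ta2* LR, 23.5% against 23.0% in *OxDRM2* CR and 10.9% against 11.5% in *OxDRM2* LR. Windows at equal distance were thus listed on both ends about as often as the Chr12 share alone gives.

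The size of the gain was also described. The median difference of hyper windows in *ta2* CR was 20.2 points in the Chr11 segment, against 20.6 in the rest of Chr11, and 20.7 points in the Chr12 segment, against 20.4 in the rest of Chr12. In *ta2* LR it was 22.7 against 24.4 points for Chr11 and 22.4 against 23.8 points for Chr12. *OxDRM2* LR gave 20.6 against 21.3 points for Chr11 and 20.4 against 21.3 points for Chr12. In these LR tables both ends had the smaller median gain.

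*OxDRM2* CR went the other way. Its hyper windows had a median of 18.5 points in the Chr11 segment, against 17.3 in the rest of Chr11, and of 18.3 points in the Chr12 segment, against 17.2 in the rest of Chr12. Among 2.5-Mb blocks, the Chr12 segment had the highest median of the 11 blocks of its chromosome and the Chr11 segment the 2nd highest of 11. In the genome, the Chr11 segment ranked 10th and the Chr12 segment 20th of 144, and among the first blocks of the 12 chromosomes they ranked 3rd and 5th. The last 2.5 Mb had similar medians, 18.1 points on Chr11 and 18.2 points on Chr12. The quartiles were 13.7 and 26.8 points in the Chr11 segment and 13.4 and 26.5 points in the Chr12 segment, so the middle ranges of segment and rest overlapped almost wholly.

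**Figure D3:**
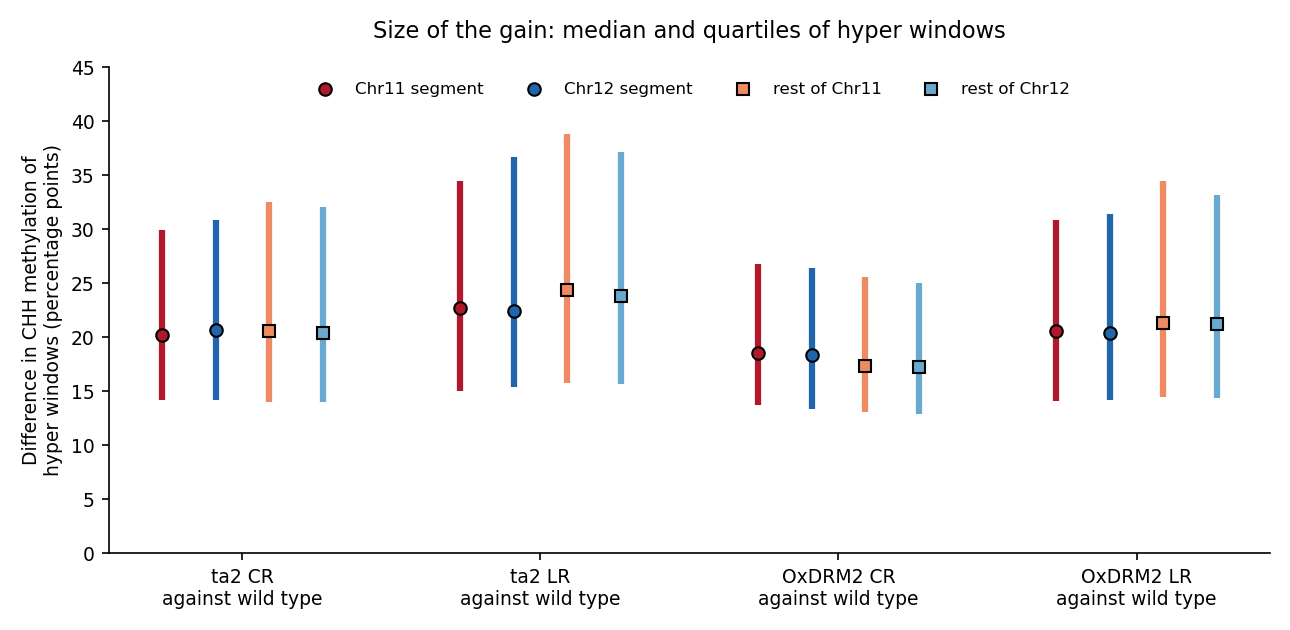
Difference in CHH methylation of hyper windows (percentage points, mutant minus wild type) in each table, for the Chr11 and Chr12 segments (circles) and the rest of each chromosome (squares). Markers are medians and bars run from the lower to the upper quartile. In *OxDRM2* CR the segment medians of 18.5 and 18.3 points lay above 17.3 and 17.2 points in the rest.

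Very large gains were less frequent on the ends than elsewhere on the same chromosomes. Windows that gained more than 50 points made up 0.736% of positions in the Chr11 segment, against 0.812% in the rest of Chr11, in *ta2* CR, and 0.782% of positions in the genome. The Chr12 segment had 0.676%, against 0.865% in the rest of Chr12. In *ta2* LR, the Chr11 segment had 0.804% against 1.06%, the Chr12 segment had 0.992% against 1.12%, and the genome had 1.07%. In *OxDRM2* CR, the Chr11 segment had 0.664% against 0.793%, the Chr12 segment had 0.608% against 0.761%, and the genome had 0.736%. In *OxDRM2* LR, the Chr11 segment had 0.704% against 1.03%, the Chr12 segment had 0.812% against 1.07%, and the genome had 1.01%. In all 8 cases the segment was below the rest of its chromosome.

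Overlapping or adjoining hyper windows were joined into regions. In *ta2* CR there were 269 hyper regions on the Chr11 segment and 294 on the Chr12 segment, in *ta2* LR 254 and 259, in *OxDRM2* CR 393 and 410, and in *OxDRM2* LR 327 on each. Their median length was 1800 to 2000 bp. They covered 20.3% of the Chr11 segment, against 19.9% of the rest of Chr11, in *ta2* CR, and 39.6% against 39.9% in *OxDRM2* CR. On Chr12, they covered 22.6% against 21.8% in *ta2* CR and 41.9% against 42.7% in *OxDRM2* CR. Regions over 5 kb numbered 26 on the Chr11 segment and 29 on the Chr12 segment in *OxDRM2* CR, against 0 and 2 in *ta2* CR. In the rest of Chr11 and of Chr12 they numbered 258 and 268 in *OxDRM2* CR, against 22 and 23 in *ta2* CR. A gain of CHH methylation thus spread over a larger part of both ends in *OxDRM2* CR, in more regions and with more long ones among them. The same held for the rest of both chromosomes, so this was not particular to the ends. Whether the higher coverage of *OxDRM2* CR contributed was not tested.

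The longest regions lay in *OxDRM2* CR. On Chr11, it was the region chr11:1141201-1153300, 12100 bp long with 83 hyper windows and a median gain of 17.8 points. In the other tables, 33 windows of it were hyper in *ta2* CR, 10 in *ta2* LR and 32 in *OxDRM2* LR. On Chr12, it was chr12:1576501-1585600, 9100 bp long with 71 hyper windows and a median gain of 13.8 points. There, 15 windows were hyper in *ta2* CR, 8 in *ta2* LR and 18 in *OxDRM2* LR. Longer regions were found elsewhere on both chromosomes, up to 44800 bp on Chr11 and 21400 bp on Chr12.

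In the other tables, the longest hyper regions were shorter. For *ta2* CR they were chr11:245501-250400, with 29 windows and a median of 23.8 points, and chr12:2329701-2335600, with 41 windows and a median of 18.8 points. For *ta2* LR they were chr11:2306701-2313000, with 27 windows and a median of 39.96 points, and chr12:2477301-2482000, with 32 windows and a median of 25.2 points. For *OxDRM2* LR they were chr11:2476501-2481500, with 37 windows and a median of 27.5 points, and chr12:411101-418200, with 44 windows and a median of 20.7 points. Several of them thus lay in the last 200 kb of the segments.

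The steepest gains of at least 10 windows were single short regions. In *ta2* LR, the region chr11:107401-109300 gained a median of 83.9 points, with a highest window of 91.5 points, and chr12:1259301-1261200 gained a median of 77.0 points. In *OxDRM2* LR, chr12:1381201-1383100 gained 81.8 points and chr11:519101-521000 gained 75.6 points. In *ta2* CR, chr12:501901-504500 gained 73.5 points and chr11:596101-598000 gained 65.1 points. In *OxDRM2* CR, chr12:32701-34600 gained 72.1 points and chr11:34301-36200 gained 67.3 points. In the region with the largest of these medians, the CHH level of the median window was thus at least 83.9% in *ta2* LR.

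2 of these regions fell in the Chr11 peak between 500 and 600 kb. At chr11:519101-521000, the 10 windows gained a median of 62.3 points in CR and 68.7 in LR of *ta2* and 52.1 in CR and 75.6 in LR of *OxDRM2*. At chr11:596101-598000, the 10 windows gained 65.1, 64.8, 41.6 and 51.8 points. All 10 windows were hyper in each table at both places, but they overlap one another and are not independent support. At chr12:1381201-1383100, all 10 windows were hyper too, and their medians were 65.8, 59.9, 57.6 and 81.8 points. Other regions differed between tables. No window lying wholly inside chr11:34301-36200 was listed outside *OxDRM2* CR, but its outer edge overlapped chr11:32901-34700, where 9 hyper windows of *ta2* CR had a median of 83.2 points.

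Merged hyper regions with a median gain above 50 points numbered 14 on the Chr11 segment and 11 on the Chr12 segment in *ta2* CR, and 19 and 22 in *ta2* LR. There were 6 and 7 in *OxDRM2* CR and 15 and 13 in *OxDRM2* LR. Per Mb, these were 5.6 against 6.79 in the rest of Chr11 and 4.4 against 6.03 in the rest of Chr12 for *ta2* CR. For *ta2* LR they were 7.6 against 10.3 and 8.8 against 9.19, and for *OxDRM2* CR 2.4 against 3.81 and 2.8 against 3.44. For *OxDRM2* LR they were 6.0 against 9.24 and 5.2 against 8.23. As a share of the hyper regions, only Chr12 in *ta2* LR was higher on the segment, with 8.49% against 8.05%. *OxDRM2* CR thus had the most hyper regions and the fewest of this size. By single windows above 50 points it was closer to the others, with 166 on the Chr11 segment and 152 on the Chr12 segment. These were 184 and 169 in *ta2* CR, 201 and 248 in *ta2* LR and 176 and 203 in *OxDRM2* LR. Joining moderate windows to strong ones lowers the median of a region, and how far this lowered the count was not tested.

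The outermost 100 kb had a lower share of hyper windows than the whole segment in each table, and their median gain was higher than in the whole segment except on Chr12 in *OxDRM2* CR. In *ta2* CR, 41 windows or 4.12% of positions were hyper in the first 100 kb of Chr11 and 64 or 6.43% in that of Chr12. In *ta2* LR there were 54 or 5.43% and 52 or 5.23%, in *OxDRM2* CR 172 or 17.3% and 178 or 17.9%, and in *OxDRM2* LR 39 or 3.92% and 71 or 7.14%. No hypo window was listed there. The hyper shares of both ends ranked 9th or 10th of the starts of 12 chromosomes, or of 11 in *ta2* CR.

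The median gain in the first 100 kb was 56.0 points on Chr11 and 24.2 points on Chr12 in *ta2* CR. In *ta2* LR it was 49.3 points on Chr11 and 43.8 points on Chr12. In *OxDRM2* it was 21.7 and 18.1 points for CR and 38.6 and 43.9 points for LR. Over the other chromosomes, the first 100 kb had median gains of 16.8 to 36.1 points in *ta2* CR and 11.3 to 59.1 points in *ta2* LR. They were 12.6 to 29.2 points in *OxDRM2* CR and 16.9 to 43.3 points in *OxDRM2* LR. The Chr11 start thus had the highest median of all starts in *ta2* CR, and the Chr12 start in *OxDRM2* LR. On Chr11 in *ta2* CR, merged regions of 12, 9 and 10 overlapping windows made up most of the 41 hyper windows, so this median rests on few places. By windows above 50 points, the Chr4 start was higher, with 57 against 27 on Chr11 in *ta2* CR. In *OxDRM2* LR it had 92 against 28 on Chr12.

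Both ends had their first strongly gaining stretch at a similar distance. Except on Chr11 in *ta2* CR, listed windows began further out. In *OxDRM2* CR the first started at 12101 on Chr11 and 10101 on Chr12, with gains of 10.4 and 10.5 points. On Chr11, the stretch chr11:28801-31600 held the first region with a median gain above 50 points. Its hyper windows had a median of 55.6 points in *ta2* CR (12 windows), 65.1 points in *ta2* LR (10 windows), 55.0 points in *OxDRM2* CR (13 windows) and 41.9 points in *OxDRM2* LR (10 windows). On Chr12, the first such stretch was chr12:27101-30000. Its medians were 55.5 points in *ta2* CR (17 windows), 54.2 points in *ta2* LR (11 windows), 62.4 points in *OxDRM2* CR (18 windows) and 50.4 points in *OxDRM2* LR (13 windows). The 2 stretches were chosen for a median above 50 points, after their values were seen, so their high medians follow from the choice. Whether the 2 stretches hold the same duplicated sequence was not tested.

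Windows that lost CHH methylation were rare. In *ta2* CR, 67 windows or 0.268% of positions were hypo in the Chr11 segment, against 0.0728% in the rest of Chr11, and 13 windows or 0.052% in the Chr12 segment, against 0.0843% in the rest of Chr12. The genome share of hypo windows in *ta2* CR was 0.131%. The Chr11 segment was the 2nd highest of the 11 blocks of Chr11 and the 7th highest of 133 in the genome by this measure, whereas the Chr12 segment was 104th. The hypo windows of the Chr11 segment formed 22 regions, or 8.8 per Mb against 3.21 per Mb in the rest of Chr11, spread over 12 of the 25 blocks of 100 kb. Of these regions, 11 consisted of a single window, and the median loss of the windows was 12.4 points.

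In the other tables the Chr11 segment had fewer hypo windows. In *ta2* LR, 10 windows or 0.04% were hypo in the Chr11 segment, against 0.119% in the rest of Chr11, and 31 windows or 0.124% in the Chr12 segment, against 0.0923% in the rest of Chr12, with 0.133% in the genome. In *OxDRM2* CR, there were 8 or 0.032% against 0.0207% on Chr11 and 15 or 0.06% against 0.0388% on Chr12, with 0.0445% in the genome. Both ends were above the rest of their chromosome in this table only, on few windows. In *OxDRM2* LR, there were 25 or 0.1% against 0.14% on Chr11 and 13 or 0.052% against 0.101% on Chr12, with 0.143% in the genome. The Chr11 segment of *ta2* LR had the lowest hypo share of the 11 blocks of its chromosome, the opposite of *ta2* CR.

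**Figure D4:**
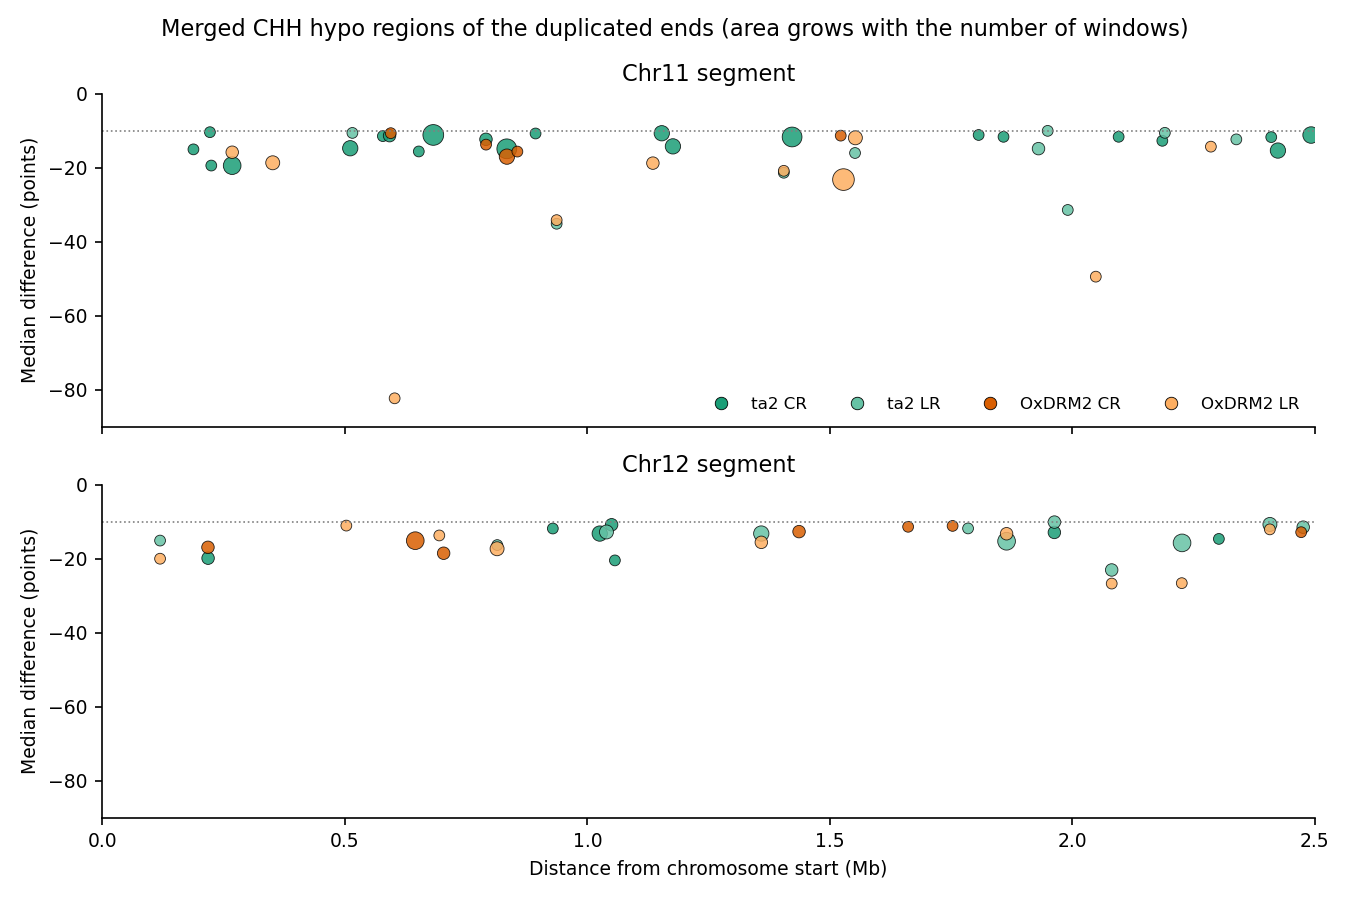
Merged hypo regions of the Chr11 segment (top) and the Chr12 segment (bottom), by distance from the chromosome start (Mb) and median difference in CHH methylation (percentage points, mutant minus wild type). Each circle is a region of 1 table and its area grows with the number of windows. The Chr11 segment held 22 regions in *ta2* CR, and its deepest, a single window in *OxDRM2* LR, reached -82.3 points.

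The longest hypo regions were small. In *ta2* CR, chr11:681401-683200 held 9 hypo windows with a median of -11.2 points. The same 9 windows were hyper in *OxDRM2* CR, with a median of 15.8 points, and none was listed in *ta2* LR. In *OxDRM2* LR, chr11:1527201-1529100 held 10 hypo windows with a median of -23.3 points and a lowest value of -45.1 points, with no window wholly inside it listed in any other table. In *OxDRM2* CR, chr12:644401-645900 held 6 hypo windows with a median of -15.1 points, and in *ta2* LR, chr12:1357801-1359500 held 4 with a median of -13.2 points. Inside that last region, 3 windows were hyper in *ta2* CR. Loss in 1 mutant or root type was thus found at or beside gain in another. Some losses recurred in both mutants of a root type, whose tables share their wild type libraries. For example, the window chr11:936201-937200 differed by -35.2 points in *ta2* LR and by -34.2 points in *OxDRM2* LR. Whether the shared wild type contributed was not tested.

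The other longest hypo regions of each table and end held 2 to 4 windows. They were chr12:217201-218600 in CR and chr11:1929801-1930900 in LR of *ta2* and chr11:833501-834800 in CR and chr12:813001-814700 in LR of *OxDRM2*, with medians of -19.9, -14.9, -17.1 and -17.3 points. A single window, chr11:602101-603100, fell by 82.3 points in *OxDRM2* LR. It was the deepest loss on either end.

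The root types were compared within each mutant, since their tables share no library. On Chr11, 1137 windows were hyper in both *ta2* CR and *ta2* LR, which is 48.3% of those in CR and 56.7% of those in LR. In the rest of Chr11, the shares were 47.7% and 53.2%. On Chr12, 1298 windows were shared, 50.1% of those in CR and 60.6% of those in LR, against 52.6% and 55.9% in the rest of Chr12. For *OxDRM2*, 1899 windows of the Chr11 segment were shared, 35.4% of those in CR and 75.4% of those in LR, against 35.1% and 70.7% in the rest. On Chr12, 2210 were shared, 38.4% and 77.1%, against 38.0% and 72.2% in the rest. The share of LR windows found again in CR was thus 3.5 to 4.9 percentage points higher on the ends than in the rest of the same chromosome. The share of CR windows found again in LR was lower on the Chr12 segment in *ta2* and only slightly higher in the other cases. Over all positions, the CR hyper share was also higher on the ends. For Chr11 and Chr12 it was 9.41% against 8.86% and 10.4% against 9.93% in *ta2*, and 21.5% against 20.8% and 23.0% against 22.5% in *OxDRM2*.

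The 100-kb profiles of CR and LR within a mutant had a Spearman's rho of 0.70 on Chr11 and 0.52 on Chr12 for *ta2* and of 0.68 and 0.52 for *OxDRM2*, over 25 blocks each. These points share their genome positions and therefore their base composition and mappability. Opposite directions were rare, with 1 window of the Chr11 segment hyper in *ta2* CR and hypo in *ta2* LR and 3 the other way round. On Chr12 these were 8 and 1. Each of these within-mutant rho values was above every one between the 2 ends of a table at this block size. Across mutants this did not hold for each pair without a shared library. There *ta2* CR with *OxDRM2* LR gave 0.76 on Chr11 and 0.60 on Chr12, and *OxDRM2* CR with *ta2* LR gave 0.47 and 0.31.

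The stretches with no window listed in any table were examined on both ends. The Chr11 segment had 82 such stretches over 5 kb, or 32.8 per Mb, against 24.2 per Mb in the rest of Chr11, and the Chr12 segment had 78, or 31.2 per Mb, against 21.4 per Mb. Stretches over 10 kb numbered 8.4 per Mb on the Chr11 segment, against 7.28 in the rest of Chr11. On the Chr12 segment they numbered 7.6 per Mb, against 4.79 in the rest of Chr12. By length they took up less of the ends, 11% of the Chr11 segment against 16.7% of the rest of Chr11. On Chr12 these shares were 9.91% of the segment and 10.7% of the rest. The longest was chr11:1356501-1376300 on Chr11, with 19800 bp, and chr12:1713001-1735100 on Chr12, with 22100 bp, both within the low stretch described above. In the rest they reached 115100 bp on Chr11 and 119800 bp on Chr12. The outermost base covered by a listed window was 12101 on Chr11 and 10101 on Chr12. An unlisted stretch may have been unchanged or not readable, and which of these applied was not tested.

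A few promoters could be placed on the ends. Positions of 200-bp promoter bins, listed in a supplementary table that was read in a shortened copy, were available for 18 genes on the Chr11 segment and 20 on the Chr12 segment. The paper lists there genes whose transcription correlated with promoter CHH methylation, and took for each the bin with the highest coefficient. These bins are therefore a selected set, unlike all bins of a segment. A bin was counted as hyper when at least 1 hyper window held it whole. On Chr11, 2 of 18 bins were hyper in CR and 2 in LR of *ta2* and 8 in CR and 4 in LR of *OxDRM2*. Over all bins of this length on the segment, the shares were 18.1%, 16.8%, 36.2% and 20.9%. On Chr12, 8 of 20 bins were hyper in CR and 4 in LR of *ta2* and 13 in CR and 8 in LR of *OxDRM2*, and the shares over the segment were 20.2%, 17.4%, 38.4% and 23.1%. No bin was held by a hypo window.

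Single promoters differed between tables. The bin of LOC_Os12g03730 (chr12:1506800-1507000) was held by 5 hyper windows in each table, with medians of 28.4 points in CR and 41.1 in LR of *ta2* and 23.9 in CR and 36.4 in LR of *OxDRM2*. That of LOC_Os12g04340 (chr12:1837100-1837300) had no listed window in *ta2* CR and a median of 24.0 points in *ta2* LR. In *OxDRM2*, its medians were 30.0 points for CR and 18.8 points for LR. On Chr11, the bin of LOC_Os11g02470 (chr11:749700-749900) was held by 8 hyper windows in *ta2* CR, with a median of 19.2 points, and by 4 in *OxDRM2* CR, with a median of 15.0 points, and by none in either LR table. The bin of LOC_Os11g03230 (chr11:1175000-1175200) was held by 7 hyper windows in *ta2* LR, with a median of 16.1 points, and by none in *ta2* CR. These 4 loci were chosen after their values were seen, and no gene name was given to them.

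*OsDRM1a* (LOC_Os11g01810), a DNA methyltransferase gene of the study's own gene list, lies on the Chr11 segment. Its own position was not used here, and by locus number it falls between the promoter bins of LOC_Os11g01780 and LOC_Os11g02020, in a stretch of 121250 bp (chr11:417450-538700). Of the window positions of this stretch, 10.9% were hyper in CR and 7.84% in LR of *ta2* and 23.2% in CR and 7.43% in LR of *OxDRM2*. In the whole Chr11 segment the shares were 9.41%, 8.03%, 21.5% and 10.1%. The median gain of these windows was 21.0 and 23.7 points in CR and LR of *ta2* and 15.5 and 19.96 points in CR and LR of *OxDRM2*. Whether any of these windows lies in *OsDRM1a* was not tested.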

How the data were processed

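BS-seq reads were mapped by the authors to RGAP version 7.0 with BS-Seeker2 (2.1.8), keeping unique reads without duplicates. The submitters' processing notes also name methylKit (3.6), without a role. The authors' deposited tables give each listed window a p-value and a q-value beside its CHH difference in percentage points, without its direction. The study's methods describe windows of 50 bp instead. Depth per window and per library was not used, so no interval is given. The *ta2* CR table ends on Chr8, so its genome share omits the rest of Chr8 and all of Chr9.

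Windows were placed on a grid of 100 bp that runs to the outermost listed window per chromosome, counted by midpoint and merged where they overlapped or touched. The steps were tested on simulated data. The arm boundary was set at 12 Mb. Regions named were the longest hyper, the longest hypo and the largest median of at least 10 windows. Members, lists and tests were chosen with earlier results of these data known. RNA-seq samples (8 libraries) were not analysed here. Python 3.11.15, numpy 2.4.6, pandas 2.3.3, scipy 1.17.1 and matplotlib 3.10.9 were used.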

Additional observations from a re-analysis of the deposited data

How the results depend on the processing

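Of 156 values recomputed under other settings, 119 kept their direction and stayed within 1.5 times, 31 crossed a ratio of 1 and 6 kept their direction but moved by more than 1.5 times. For the Chr11 segment over the rest of Chr11, a limit of 20 points gave 0.93 in *ta2* LR, a limit of 30 points 0.91 in *ta2* CR and 0.83 in *ta2* LR, and a limit of 50 points 0.91 in *ta2* CR, 0.76 in *ta2* LR and 0.84 in *OxDRM2* CR. The base pairs covered gave 0.99 in *OxDRM2* CR, a segment of 2.0 Mb 0.95 in *ta2* LR and a segment of 3.0 Mb 1.05 in *OxDRM2* LR. Against the rest of the short arm it was 0.98 in *ta2* CR, 0.91 in *ta2* LR and 0.93 in *OxDRM2* CR, and without 10 to 14 Mb 0.98 in *ta2* LR. Against the last 2.5 Mb it was 2.1 and 1.74 in CR and LR of *ta2* and 1.92 and 1.53 in CR and LR of *OxDRM2*. For the Chr12 segment over the rest of Chr12, limits of 30 and 50 points gave 1.00 and 0.78 in *ta2* CR. With *OxDRM2* CR, the limit of 50 points gave 0.80 and the base pairs covered gave 0.98. A segment of 2.0 Mb gave 0.98 in *ta2* CR and 0.97 in *OxDRM2* CR, one of 3.0 Mb 1.01 in *OxDRM2* LR, and the last 2.5 Mb 0.93 in *ta2* CR and 0.98 in *OxDRM2* CR. For Chr11 over Chr12, a limit of 30 points gave 1.01 in *OxDRM2* CR, and 50 points 1.09 in *ta2* CR and in *OxDRM2* CR. Settings added after the data were seen left out 500 to 600 kb of Chr11, which gave 1.00 in *ta2* LR and 0.99 in *OxDRM2* CR against the rest, or 2300 to 2500 kb of Chr12, which gave 0.98 in *ta2* CR and 1.00 in *OxDRM2* CR against the rest and 1.02 in *ta2* LR for Chr11 over Chr12. Spearman's rho between the ends was 0.27 to 0.35 in blocks of 50 kb and 0.52 to 0.67 in blocks of 250 kb, and in *OxDRM2* CR it was lowest at 100 kb. The cause of these shifts was not tested.

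No paired analysis was possible because the tables carry no value per replicate. Leaving out single replicates was not run either, nor was a coverage minimum, as coverage is not in the columns used, nor any comparison at aligned positions, which needs a genome of the same version. The overlap of neighbouring windows and the lack of replicate values limit each difference above to a description of 4 tables.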
